A study of Mus musculus with 3 samples.

Results

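The transfection controls of the mouse dental epithelial line CLDE were compared gene by gene: cells that received a non-targeting siRNA (siNeg) and cells that were mock transfected. Every gene whose probe signal stood well above background on both arrays was taken, which gave 24389 of the 37074 gene names on the array, read by 36741 of 56605 probes. For each gene the log2 processed signal, less the 75th percentile of its array, was averaged over probes, and the value of the mock array was subtracted from that of the siNeg array. A positive difference therefore means a higher transcript level with the non-targeting siRNA.

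CLDE cells were derived from the cervical loop, the growing end of the tooth epithelium where its stem cells reside. The study, whose title names keratin 15 and proliferation in the outer enamel epithelium, used 3 groups with 1 array each: mock, ON-TARGETplus non-targeting control siRNA, and siRNA against Krt15 (siKrt15). All cells grew in keratinocyte serum-free medium and were harvested at 72 h. The siRNAs were delivered with the lipid reagent Lipofectamine RNAiMax. The labels do not say whether the mock cells received that reagent. The siKrt15 array was used here only to see whether a difference between mock and siNeg went further. One cell line and 1 array for each group limit what the comparison can represent: there is no replicate check, no test was possible, and no p-value is given. Each ± below is the SD that the scanner's error model gives for the difference, which leaves out the spread between cultures.

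The labels of the siRNA arrays contradict each other. Their titles and source names give siNeg and siKrt15, and their descriptions and treatment fields give the reverse. Arrays are called by their titles. Krt15, the keratin targeted in the study, had normalised log2 levels of 3.79 in mock, 3.19 in siNeg and 0.31 in the array titled siKrt15, so it was lowest where the title places its siRNA. For siNeg and mock alone it was lower in siNeg by −0.60 ± 0.20.

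Small interfering RNAs are loaded into Argonaute proteins and direct the cleavage of matching transcripts, and a non-targeting duplex is designed to have no such match. Double-stranded RNA and cationic lipid can each be sensed by cells: RIG-I-like receptors, Toll-like receptors and the kinase PKR couple RNA recognition to interferon and inflammatory genes. Epithelial cells also make acute-phase and complement proteins, such as C3, orosomucoids and serum amyloid A, under the control of C/EBP, STAT3 and NF-kB factors.

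All 3 arrays lay on 1 slide, with 69.0% (mock) and 69.2% (siNeg) of the non-control spots well above background and 0 saturated spots. The 75th percentile of the signal was 191.1 in mock and 180.4 in siNeg. Scaling on the added spike-in RNAs instead would have lowered the median of all differences by 0.15, so differences are given relative to the 75th percentile. Marker signals are summed over the brightest probe of each marker and are not scaled, so the lower 75th percentile of siNeg enters them. Of 7 epithelial markers all 7 were above background, with summed signals of 210924 in mock and 210834 in siNeg. Of 8 dental epithelial markers 5 were above background, among them Pax9 and Sp6, while Ambn, Enam and Shh were not, and their summed signals were 1742 and 1592. Of 14 mesenchymal markers 10 were above background on each array, with summed signals of 612 and 594. Of 16 endothelial, blood and immune markers 10 (mock) and 9 (siNeg) were above background, with summed signals of 7142 and 6576, mostly from Itgam, Cd68, Ptprc and Csf1r probes. Cdh5, Kdr, Tek, Adgre1, Hbb-b1 and Lyz2 were not above background on either array. Tyrobp was above it in mock only, at a signal of 8.03. In whole cultures, fewer cells of a type and less RNA per cell cannot be told apart.

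The differences were small. Their median was 0.02 and their SD 0.25, and 68.6% of genes lay within 0.2 of 0. The spread depended on brightness: the SD was 0.15 among the brighter genes, which are the 12195 whose signal reached the median, and 0.33 among the 12194 dimmer ones. In 10 equal groups of genes ordered by signal it was 0.39 and 0.40 in the dimmest groups and 0.115 in the brightest. Among 291 probes with at least 5 usable spots, the spots of 1 probe differed with a median SD of 0.05, and the probe means ranged from −0.18 to 0.48.

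**Figure D1:**
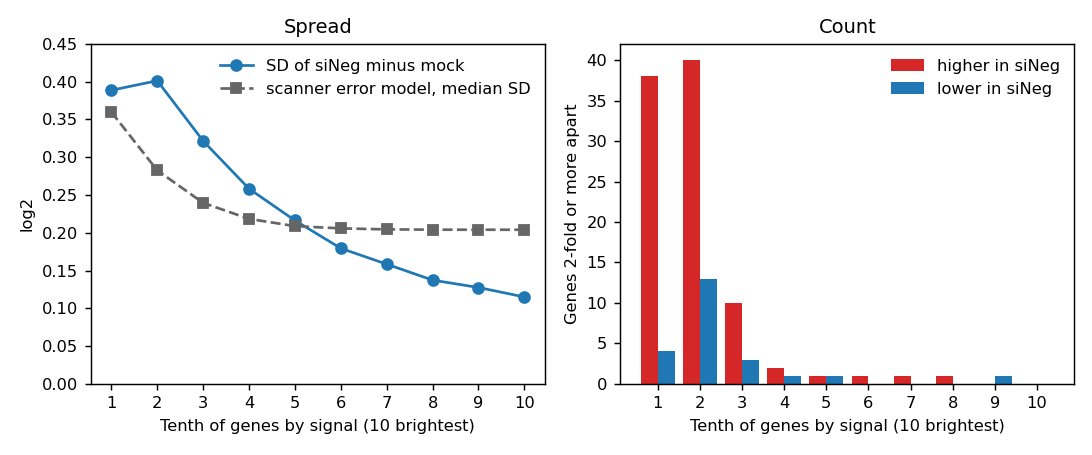
Left, SD of the siNeg minus mock difference (log2) in 10 equal groups of genes ordered by signal (circles), with the median SD that the scanner's error model gives (squares). Right, the number of genes at least 2-fold higher (red) or lower (blue) in siNeg in each group. The SD is 0.39 in the dimmest and 0.115 in the brightest group, and 38 and 40 of the 94 higher genes lie in the dimmest groups.

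In siNeg 94 genes were higher by 2-fold or more, which is 0.385% of all measured, and 23 genes were lower by as much, 0.0943%. The higher genes closest to the threshold had log2 differences of 1.003 inside it and 0.999 outside it. Higher genes made up 80.3% of these 117 genes. That split moved to 41.5% with spike-in scaling, 63.5% with no filter on dim probes, 66.7% with a stricter filter and 62.5% at a 1.5-fold threshold. With normexp background correction, which adds an offset that draws dim genes together, 0 genes were higher and 2 lower. The higher genes had a median processed signal of 6.68 in mock and 13.6 in siNeg, close to the background. All 94 and all 23 rest on 1 probe each, and 43 of the higher and 3 of the lower have a gene symbol that is not a clone, locus or predicted name.

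Of the brighter genes 3 were 2-fold higher or more (0.0246%) and 1 was 2-fold lower (0.0082%), against 91 (0.746%) and 22 (0.18%) of the dimmer genes. The 3 were the orosomucoid genes Orm1 and Orm2 and a transcript without a symbol. At 1.5-fold, 14 of these brighter genes were higher (0.115%) and 26 lower (0.213%), against 661 (2.71%) and 396 (1.62%) over all genes and 5.31% and 3.03% of the dimmer ones. These counts and their direction move with the setting. Under spike-in scaling 1 brighter gene was 2-fold higher and 3 were lower, under normexp 0 and 1, and with no filter 23 and 12. At 1.5-fold the brighter genes numbered 6 higher and 83 lower under spike-in scaling, 7 and 5 under normexp, 9 and 10 with the stricter filter, 20 and 20 with the brightest probe, and 203 and 223 with no filter. The genes described next were chosen by rank and family among genes with a symbol, a signal at or above the 25th percentile and probes that all went the same way, and by gene list.

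**Figure D2:**
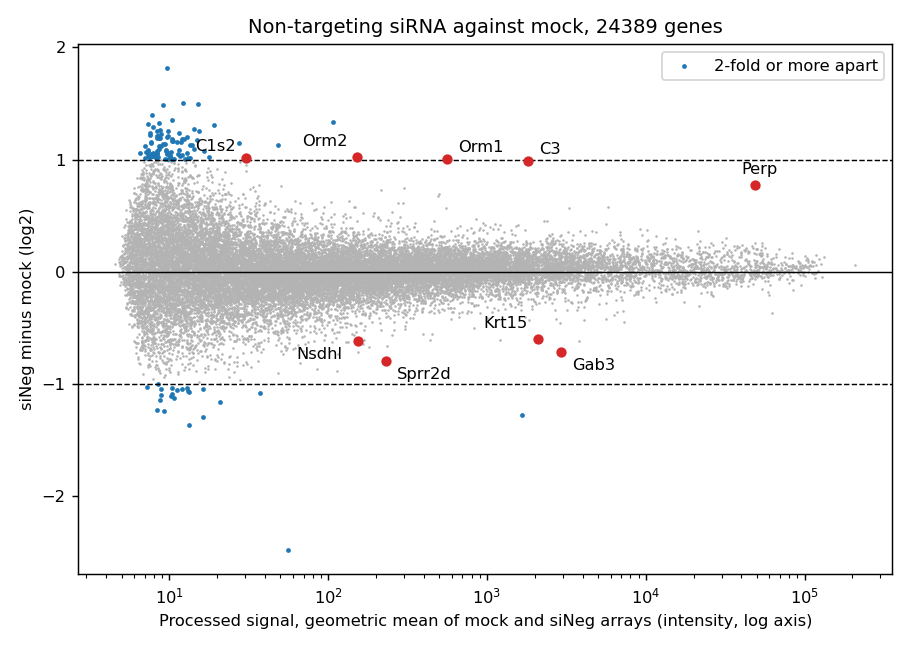
Difference siNeg minus mock (log2) of 24389 genes against their processed signal, the geometric mean of both arrays on a log axis. Blue points are at least 2-fold apart and red points are named genes. Most blue points lie at the dim end, while C3 (0.99), Orm1 (1.01) and Perp (0.77) stand off from genes of like brightness.

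The orosomucoids and complement genes led the higher genes. Orosomucoid, or alpha-1-acid glycoprotein, is a secreted acute-phase carrier protein, and C3 is the central component of complement. The probes of Orm1, Orm2 and C3 are shown because the largest differences among brighter genes with a symbol that were higher in siNeg rest on them. That of Orm3 is added because the Orm genes are close relatives that a probe may not keep apart. The Orm1 and Orm3 probes overlap over 52 bases when aligned without gaps, of which 46 are identical, and capitals mark the 6 that differ.
Orm1 probe, mm9 chr4:63007395-63009038, plus strand, across a splice junction: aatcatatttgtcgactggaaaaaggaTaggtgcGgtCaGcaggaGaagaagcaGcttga
Orm3 probe, mm9 chr4:63018910-63020393, plus strand, across a splice junction: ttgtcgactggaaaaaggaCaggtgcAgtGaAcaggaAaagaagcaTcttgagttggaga
Orm2 probe, mm9 chr4:63024979-63025038, plus strand: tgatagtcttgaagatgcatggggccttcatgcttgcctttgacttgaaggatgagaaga
C3 probe, mm9 chr17:57343678-57343737, minus strand: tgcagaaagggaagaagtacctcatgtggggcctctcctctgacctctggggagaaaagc
The array annotation assigns the Orm1 probe to transcripts of both Orm1 and Orm2, so these genes cannot be told apart by it, while the Orm2 and Orm3 probes are each assigned to 1 gene.

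Orm1 had normalised log2 levels of 1.09 in mock, 2.09 in siNeg and 2.41 in siKrt15. It was higher in siNeg by 1.01 ± 0.20, or 2.01-fold, with processed signals of 405 and 769. Orm2 stood at −0.81, 0.22 and 0.58 in the same order, a difference of 1.03 ± 0.20 (2.04-fold). Both genes were lowest in mock and highest in siKrt15. Orm3 was dimmer, at −2.61, −2.27 and −2.10, and its difference was 0.34 ± 0.21. In each of the 3 the siNeg array lay between mock and siKrt15.

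C3 was the brightest gene with a difference close to 2-fold. Its levels were 2.80 in mock, 3.78 in siNeg and 4.80 in siKrt15, and the difference of siNeg from mock was 0.99 ± 0.20 (1.98-fold). The probe printed above gave 0.93 and the other C3 probe, at mm9 chr17:57343416-57343475, gave 1.05. The signals averaged 1327 in mock, 2485 in siNeg and 6014 in siKrt15, so the array titled siKrt15 was higher again. C3 stayed between 0.84 and 1.05 in the 11 other settings that give it a value.

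C1s2, a copy of the complement protease subunit C1s, was dim, with levels of −3.12 in mock and −2.10 in siNeg, and was higher in siNeg by 1.01 ± 0.22. Its probe is assigned to transcripts of both C1s1 and C1s2, and the C1s1 probes gave 0.28 and 0.69. Its level went further in siKrt15, to −1.71, but under normexp its difference was 0.39. Saa3, a serum amyloid A made outside the liver, was higher by 0.79 ± 0.22 with levels of −3.32, −2.52 and −3.09, so siKrt15 lay closer to mock, and with normexp it was at 0.28.

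In the whole complement and acute-phase list 23 of 32 genes were measured. Of the 23, 16 were above 0 (53.9% of all genes were). At 1.5-fold or more 5 were higher (2.71% of all genes were) and 0 lower (1.62%). Of the 5, Orm1, Orm2 and C1s2 reached 2-fold (0.385% of all genes did). The list was chosen with earlier results known. The Orm1 and C1s2 probes are each assigned to more than 1 gene, so these 5 are not all separate readings. The list median was 0.15, against 0.02 over all genes, and ranged from 0.00 with spike-in scaling to 0.28 with the stricter filter. The iron-chelator carrier Lcn2 was at 0.35 in siNeg but lower in siKrt15, with levels of 3.94, 4.29 and 2.56. The complement proteases C1ra (0.23) and Masp1 (0.28, near background) and haptoglobin (Hp, 0.33, near background) were above 0. Saa1 (0.11), the complement component C4b (−0.04) and the complement regulators Cd55 (0.03) and Cd59a (0.07) lay near 0. C2 (−0.33) and Lrg1 (−0.30), both dim, were lowest. Factor B (Cfb), Cfi, Lbp, Serpina3n and Ptx3 were among the 9 that were not well above background on both arrays. The endothelial, blood and immune marker list had a median of −0.11 over 9 measured genes, and its part in the complement values was not tested.

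Promoters of 7 genes were sought in the RefSeq table (C3, Orm1, Orm2, Orm3, Saa3, C1s2 and Sprr2d), and 6 matched, all but Orm1. The 250 bases before the start of 4 of them are shown because C/EBP factors are known regulators of acute-phase genes. Capitals mark matches to the motif TTNNGNAA on either strand, and the lines run 5′ to 3′ on the strand of the gene.
C3, GRCm38.p6 chr17:57228137-57228386, minus strand: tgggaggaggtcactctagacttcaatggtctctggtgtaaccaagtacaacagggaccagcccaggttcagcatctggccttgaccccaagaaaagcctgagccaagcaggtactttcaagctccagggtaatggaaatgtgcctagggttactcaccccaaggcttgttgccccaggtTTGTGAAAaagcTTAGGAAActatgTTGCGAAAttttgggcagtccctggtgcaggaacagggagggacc
Orm2, GRCm38.p6 chr4:63362199-63362448, plus strand: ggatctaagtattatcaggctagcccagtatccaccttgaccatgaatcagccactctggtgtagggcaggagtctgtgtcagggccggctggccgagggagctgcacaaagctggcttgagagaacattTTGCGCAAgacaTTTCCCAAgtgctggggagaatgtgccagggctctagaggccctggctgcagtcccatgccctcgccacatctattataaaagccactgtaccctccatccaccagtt
Orm3, GRCm38.p6 chr4:63355908-63356157, plus strand: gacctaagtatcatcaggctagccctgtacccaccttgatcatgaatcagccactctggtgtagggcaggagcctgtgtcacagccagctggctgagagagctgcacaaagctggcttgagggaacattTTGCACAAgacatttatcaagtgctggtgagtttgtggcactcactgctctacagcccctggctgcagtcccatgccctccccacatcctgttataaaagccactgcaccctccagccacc
Saa3, GRCm38.p6 chr7:46715677-46715926, minus strand: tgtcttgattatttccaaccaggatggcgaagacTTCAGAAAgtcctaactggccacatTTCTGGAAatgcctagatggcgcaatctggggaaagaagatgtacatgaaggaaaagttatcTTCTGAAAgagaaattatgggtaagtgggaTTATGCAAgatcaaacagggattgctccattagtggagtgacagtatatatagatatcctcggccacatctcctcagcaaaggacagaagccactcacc
The motif stood in 3 places before C3, the nearest ending at base −38, in 2 before Orm2, in 1 before Orm3 and in 4 before Saa3. Of the matched genes not shown, it was absent before C1s2 (higher in siNeg). It stood at bases −95 to −88 before Sprr2d (lower in siNeg). It was found in 36.8% of all 32851 promoter windows, in 40.3% of the 27025 genes they belong to, and in 11 of 17 complement and acute-phase genes that were measured and had a window. In the interferon list, where differences were small, it was in 12 of 22. An NF-kB motif, written as 3 G, 5 free bases and 2 C, was in 48.7% of all genes and in 12 of the 17. It was also in 16 of 22 genes of the interferon list and in 17 of 19 of the sterol list, where most genes were lower. The STAT letters TTCNNNGAA were in 8.13% of all genes and in 2 of the 17 on either strand. In Saa3 the C/EBP match at bases −129 to −122 overlaps a match to a motif of interferon response elements at −125 to −116. These are letter matches only.

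**Figure D3:**
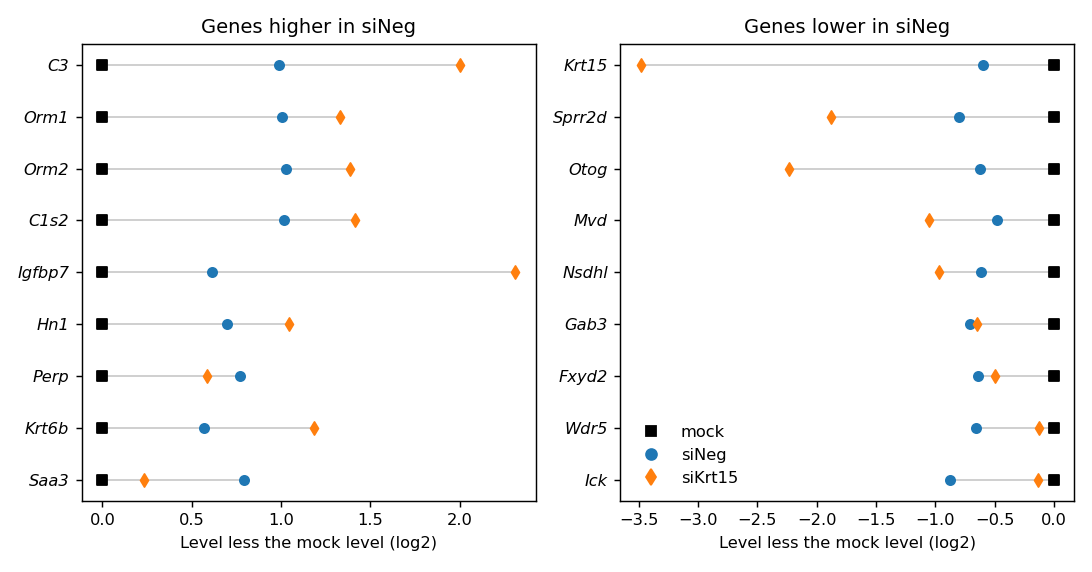
Normalised log2 level of 18 genes in siNeg (circles) and siKrt15 (diamonds) less the level in mock (squares, at 0), for genes higher (left) and lower (right) in siNeg. C3 is at 0.99 in siNeg and 2.003 in siKrt15, and Krt15 at −0.60 and −3.48, while Wdr5 and Ick (Cilk1) lie at −0.13 and −0.14 in siKrt15.

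Perp, a desmosome-associated p53 target of stratified epithelia, was higher among the very brightest genes. Its levels were 7.66, 8.43 and 8.24 in mock, siNeg and siKrt15, a difference of 0.77 ± 0.20 (1.71-fold) on processed signals of 38633 and 62227. In the brightest of the 10 signal groups, where the SD was 0.11, it was the 1 gene at least 1.5-fold higher. Its single probe lies at mm9 chr10:18576697-18576756.

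Other brighter genes higher in siNeg were Hn1 (Jpt1), a microtubule-associated protein, at 0.70, the retrovirus-restricting cytidine deaminase Apobec3 at 0.63, the histone gene Hist1h2ai (H2ac13) at 0.62 and the secreted insulin-like growth factor binding protein Igfbp7 at 0.61. Igfbp7 went much further in siKrt15, with levels of 0.26, 0.87 and 2.57. Hn1 and Hist1h2ai went further as well (1.09, 1.78, 2.13 and −1.15, −0.53, −0.04). The Apobec3 value averages probes at 0.14 and 1.13. Hist1h2ai belongs to a family of near-identical histone genes, so the source of its signal is uncertain.

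The dimmer genes at the top of the ranking were the collagen VI chain Col6a3 (0.98), the adhesion receptor Adgra3 (0.91), the thioesterase Olah (0.84), the kinetochore protein Ndc80 (0.78), the volume-regulated channel subunit Lrrc8b (0.77) and D14Ertd670e (0.76). Their signals in mock were 14.2 to 40.0. Col6a3, Olah and D14Ertd670e were below their mock level in siKrt15, at −3.74, −4.00 and −2.57 against −3.22, −3.75 and −2.25. Adgra3 lay between, and Ndc80 and Lrrc8b went further. Both Lrrc8b probes were higher, by 0.68 and 0.86. With no filter on dim probes Col6a3, which then takes in more probes, turned to −0.14.

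Sprr2d, a small proline-rich protein crosslinked into the cornified envelope, was lower in siNeg by −0.80 ± 0.20 (1.74-fold) on 1 probe at mm9 chr3:92144721-92144780. Its levels were 0.72 in mock, −0.07 in siNeg and −1.15 in siKrt15, so it was lower again there. The Sprr2 genes sit in a cluster of close relatives whose probes may cross-hybridise. Of the 10 measured Sprr2 genes 8 were below 0, while 53.9% of all genes were above 0. After Sprr2d came Sprr2f (−0.39), Sprr2i (−0.38), Sprr2e (−0.29), Sprr2h (−0.28) and Sprr2g (−0.27), all of low signal, then Sprr2a2 (−0.11) and Sprr2j-ps (−0.07). The brighter Sprr2b (0.08) and Sprr2k (0.15) were above 0, although Sprr2b turned to −0.07 with spike-in scaling. Under normexp, Sprr2d was at −0.65, while Sprr2f turned to 0.04.

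Krt15 itself was 1.51-fold lower in siNeg than in mock, on processed signals of 1647 and 2638. It ranged from −0.75 to −0.59 over 11 other settings. Its only probe is shown because it carries both the check of the labels and this difference between controls.
Krt15 probe, mm9 chr11:99993331-99993390, minus strand: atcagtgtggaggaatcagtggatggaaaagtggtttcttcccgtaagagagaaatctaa

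Further brighter genes lower in siNeg were the docking protein Gab3 (−0.71, signals of 3860 and 2229), the platelet-activating factor acetylhydrolase subunit Pafah1b2 (−0.67), the sodium pump regulator Fxyd2 (−0.64), the carbonic anhydrase Car15 (−0.63) and otogelin (Otog, −0.62), a protein of inner ear membranes. Gab3 was about as low in siKrt15, at levels of 4.34, 3.63 and 3.69. Otog went further, at −0.50, −1.12 and −2.73, and Fxyd2 stayed between, at 0.16, −0.48 and −0.34. The ciliogenesis kinase Ick (Cilk1, −0.88) and the histone methyltransferase subunit Wdr5 (−0.66) had probes that disagreed, and both returned close to mock in siKrt15. The other genes at the bottom of the ranking were dim, with signals in mock of 24.1 to 91.3: Nlrp9a (−0.84), D1Ertd704e (−0.83), Vwce (−0.81), D11Ertd726e (−0.81), Frem1 (−0.79), Ccdc18 (−0.78), Olfr780 (−0.76), Lce3c (−0.75), Adora2a (−0.73) and the pseudogene Lgals1-ps2 (−0.71). Under normexp these lay between −0.42 and −0.14. With no filter on dim probes Nlrp9a turned to 0.27.

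Some large differences lay on noncoding or unnamed transcripts, which were picked out after their values were seen. The probe for the clone transcript AK030475, at mm9 chr16:85155623-85155682 on the minus strand, was at −2.48 ± 0.21, or 5.57-fold lower, with levels of −0.49, −2.97 and −3.67. It stayed at least 2-fold lower in all 11 other settings. The only brighter gene at least 2-fold lower was a long noncoding transcript with a minus-strand probe at mm9 chr19:5834543-5834602, at −1.27 ± 0.20 with levels of 3.80, 2.53 and 2.17 and signals of 2668, 1043 and 973. Its probe lies near those annotated Neat1, the noncoding RNA that scaffolds nuclear paraspeckles, and on the same strand. Whether it reads a part of Neat1 or a separate transcript was not tested. The 2 Neat1 probes, the nearer at mm9 chr19:5844123-5844182, were at −0.66 and −0.38, and a probe between them and that transcript, annotated NEAT1, was at −0.24. The probes read on the opposite strand there were at −0.71, 0.02 and −0.37. A minus-strand probe on the other side, at mm9 chr19:5798256-5798315, was at −0.25, and the neighbouring gene Frmd8 at −0.26. The first Neat1 probe was back near its mock level in siKrt15 (0.89 against 1.099), while the probe at chr19:5834543-5834602 was not. The predicted gene Gm34786 was lower on all 3 of its probes (−0.67, −0.60 and −0.54), with a level of 3.004 in mock, 2.40 in siNeg and 2.06 in siKrt15. The highest brighter transcript was ENSMUST00000161226, at 1.33 ± 0.21, on mm9 chr5:133018612-133018671.

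Gene lists are given by their medians and counts. In 5 of the 24 lists (complement and acute phase, sterol and lipid synthesis, p53 and CDK inhibitors, G2/M, and NRF2) the median kept its sign in the other settings, while in the other 19 it turned in at least 1, mostly under spike-in scaling. Genes of sterol and lipid synthesis were lower together. Of 29 measured genes in this list 26 were below 0 and 3 above (53.9% of all genes were above 0). The median of −0.22 ranged from −0.37 (spike-in scaling) to −0.16 (normexp). Of the 29, Nsdhl was at least 1.5-fold lower (1.62% of all genes were). Another 1, near background, was at least 1.5-fold higher (2.71% of all genes were), and 0 were 2-fold apart. Nsdhl, a C4-demethylation enzyme of the cholesterol pathway, was at −0.61 ± 0.21 with both probes lower (−0.79 and −0.43) and levels of 0.03, −0.58 and −0.93. The mevalonate decarboxylase Mvd was at −0.48 with levels of 2.85, 2.37 and 1.79. The HMG-CoA synthase Hmgcs1 was at −0.37 with levels of 2.201, 1.83 and 1.24, and lanosterol demethylase Cyp51 at −0.36 with 1.89, 1.53 and 1.15. For these 4 the siNeg array lay between mock and siKrt15. Reference genes were also lower in siKrt15 than in siNeg, with a median of −0.32, against −0.35 for the sterol list. Whether the sterol genes went further than that shift was not tested.

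Along the pathway, Sc5d (−0.37), Idi1, Msmo1, Fdft1 and Fdps (each −0.27), Lss (−0.23), Mvk (−0.22) and Sqle (−0.21) were of like size. The sterol sensor partner Insig1 was at −0.17. The transcription factors Srebf1 (−0.16) and Srebf2 (−0.03), which drive the pathway, and the fatty acid enzymes Fasn (−0.17), Acly (−0.05) and Acaca (0.10) lay closer to 0, although Elovl6 was at −0.32 and Scd2 at −0.23. Acaca and Scd1 (0.17, near background) were among the 3 members above 0. Apart from Nsdhl, each of the differences named here was under 1.5-fold.

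**Figure D4:**
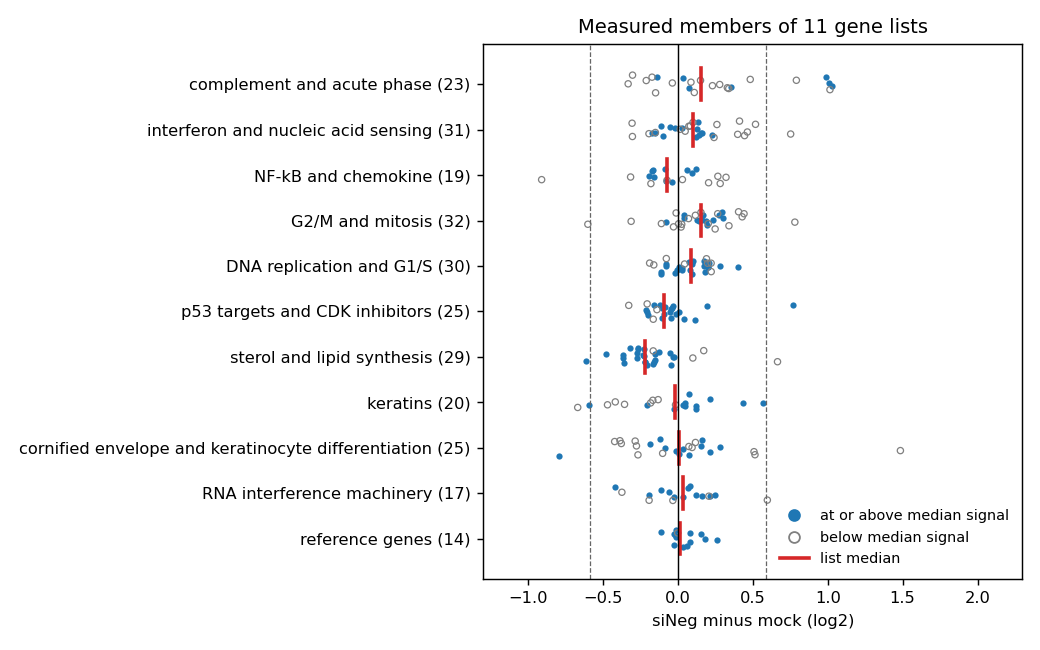
Difference siNeg minus mock (log2) of each measured member of 11 gene lists, with the number measured in parentheses, filled for genes at or above the median signal and open for dimmer genes. The red bar is the list median and dashed lines mark 1.5-fold. The sterol list sits to the left (−0.22) and the complement list holds the brighter genes near 1.

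Sensors and targets of the RNA-induced interferon response differed little. Of 31 measured genes 21 were above 0 (53.9% of all genes were), with a median of 0.10. At 1.5-fold or more 1 was higher (2.71% of all genes were), the dim Oasl1 (0.75, signal 7.6 in mock). The median turned to −0.05 with spike-in scaling. The oligoadenylate synthetases Oas1a (0.52) and Oas2 (0.46), the antiviral enzyme Rsad2 (0.44), the transcription factor Irf7 (0.41) and the nucleic acid sensor Zbp1 (0.40) were higher but dim. The better measured members were closer to 0: Isg15 at 0.16, Irf1 at 0.23, PKR (Eif2ak2) at 0.12 and Ifitm3 at −0.10. The RNA sensors Ddx58 (0.12), Ifih1 (0.07) and Tlr3 (0.05) and the adaptor Mavs (−0.11) also lay near 0. Of the dim members, the RNA helicase Dhx58 was at −0.30, the adaptor Tmem173 (Sting1) at −0.31 and Oasl2 at −0.19. Ifit1, Ifit2, Ifit3, Oas1g and Mx1 were not well above background on both arrays. In siKrt15 Isg15 stood higher, with levels of 0.01, 0.17 and 0.99.

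The NF-kB and chemokine list had a median of −0.07 over 19 measured genes, with 8 above 0 (53.9% of all genes were). None was at least 1.5-fold higher (2.71% of all genes were). Its inhibitor Nfkbia (−0.04), the deubiquitinase Tnfaip3 (−0.08) and the chemokine Cxcl1 (−0.17) were close to 0, and the caspase regulator Birc3 (−0.91) was near background at a signal of 9.7 in mock. Among STAT3, C/EBP and cytokine-suppressor genes the median was −0.01 over 16, with Bcl3 (0.39) the highest and Il1r1 (−0.27) the lowest. The RNA interference list had a median of 0.03 over 17. The slicer Argonaute Ago2 was at 0.12, Dicer1 at 0.08 and Drosha at 0.25, while Ago4 (0.60) was dim and Ago1 (−0.42) averaged a dim probe at −0.88 and its brightest at 0.04.

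Mitotic genes differed little between the controls. Of 32 measured G2/M genes 26 were above 0 (53.9% of all genes were), with a median of 0.16, and 1 was at least 1.5-fold higher (Ndc80) and 1 lower (Kif4, −0.60, near background). With spike-in scaling the median was 0.01, and over the settings up to 15 members were below 0. The median level was −1.99 in mock, −1.88 in siNeg and −0.31 in siKrt15. Cyclin A2 (Ccna2) was at 0.34 and stood at −1.84 in mock and 0.58 in siKrt15, the kinase Aurka was at 0.27 with levels of 0.75, 1.02 and 2.46, and the proliferation marker Mki67 at 0.19 with −0.96, −0.78 and 1.21. The kinases Cdk1 (−0.01) and Plk1 (0.04) were near 0 between the controls. In the replication and G1/S list 21 of 30 were above 0, with a median of 0.09 that turned to −0.06 with spike-in scaling, and cyclin E1 (Ccne1, 0.40) was highest.

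The p53 and CDK-inhibitor list had 20 of 25 genes below 0 and 5 above (53.9% of all genes were above 0). Its median was −0.10, from −0.25 to −0.035 over the 11 other settings, and Perp was its 1 member at least 1.5-fold apart. Cdkn2a was at −0.33 (dim, probes at −0.50 and −0.15), p27 (Cdkn1b) at −0.20 and the stress kinase Plk2 at −0.21. The classical p53 targets Cdkn1a (−0.05), Mdm2 (−0.04), Pmaip1 (−0.03) and Bax (−0.09) were near 0.

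Keratins, the intermediate filaments of epithelia, went both ways. Of 20 measured, 9 were above 0 (53.9% of all genes were) and the median was −0.02. At 1.5-fold or more 2 were lower (1.62% of all genes were), Krt15 and the dim Krt20 (−0.67, but 0.00 under normexp). Of the stress keratins, Krt6b was at 0.57 and Krt16 at 0.44, both short of 1.5-fold, while Krt6a (0.05) and Krt17 (0.12) lay near 0. The levels in mock, siNeg and siKrt15 were 1.29, 1.85 and 2.47 for Krt6b and 2.13, 2.57 and 2.60 for Krt16. The abundant basal keratins Krt5 (0.12) and Krt14 (0.05) also lay near 0. The simple epithelial keratin Krt8 was at 0.22 and Krt18 at 0.03.

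The remaining lists had medians between −0.11 and 0.13. In the cornified envelope list, with a median of 0.00 over 25, Sprr4 was at 1.49 on mock and siNeg signals of 5.6 and 14.9, and loricrin (Lor, 0.51) and Krtdap (0.51) were dim too. The lysosomal protease Ctsz (1.08) was also near background. Basal adhesion (0.02 over 24), ameloblast and enamel (0.05 over 14), dental stem and cervical loop (0.08 over 17), Wnt, Notch and Hedgehog targets (0.00 over 17), hypoxia and glycolysis (0.04 over 21), apoptosis (−0.02 over 20), unfolded protein stress (0.03 over 22) and lysosome genes (−0.04 over 24) held no brighter gene at 1.5-fold. Hey1, a Notch target, was at −0.50, Lef1 at 0.34, the epidermal growth factor family ligand Areg at 0.32 and the inflammatory caspase Casp4 at 0.42. The glutathione transferase Gsta4 (−0.34) and the glutathione synthesis subunit Gclc (−0.29) were lowest in the NRF2 list, whose median was −0.06 over 17. The 14 measured reference genes had a median of 0.02, with the range from B2m (−0.12) to Tubb5 (0.26).

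Probes of the same gene were set side by side. Of 7947 genes with 2 or more measured probes, the first probe was at least 1.5-fold higher in 133, and in 7 of these the second was too, against 1.66% of all second probes. The second probe was above 0 in 91 of the 133, with a median of 0.08. In 73 genes the first was at least 1.5-fold lower, and in 0 of these was the second, against 1.69% of all second probes. Among the 18371 brighter probes 5 were at least 2-fold higher and 5 lower. For Sdc1, a heparan sulphate proteoglycan, 1 probe was at 1.102 and the others at 0.06 and −0.01, the last of which lies just upstream (mm9 chr12:8799275-8799334 against chr12:8799383-8799442). The zinc finger gene Zfp322a had 1 probe at −1.35 and others from 0.11 to 0.17, and the ribosomal protein gene Rps28 had 1 at −1.05 and others at −0.03 and −0.02. Met, the hepatocyte growth factor receptor, had probes at −1.05 and −0.05, and Wdr5 at −1.13 and −0.18. In siKrt15 the outlying Zfp322a and Wdr5 probes were at 1.49 and 3.09, close to their mock levels of 1.57 and 2.97, while the Sdc1 probe stayed with siNeg at 4.48. C3, Lrrc8b and Gm34786 were among the genes whose probes gave like values. Both Nsdhl probes were lower, but by −0.79 on the dimmer and −0.43 on the brighter probe.

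**Figure D5:**
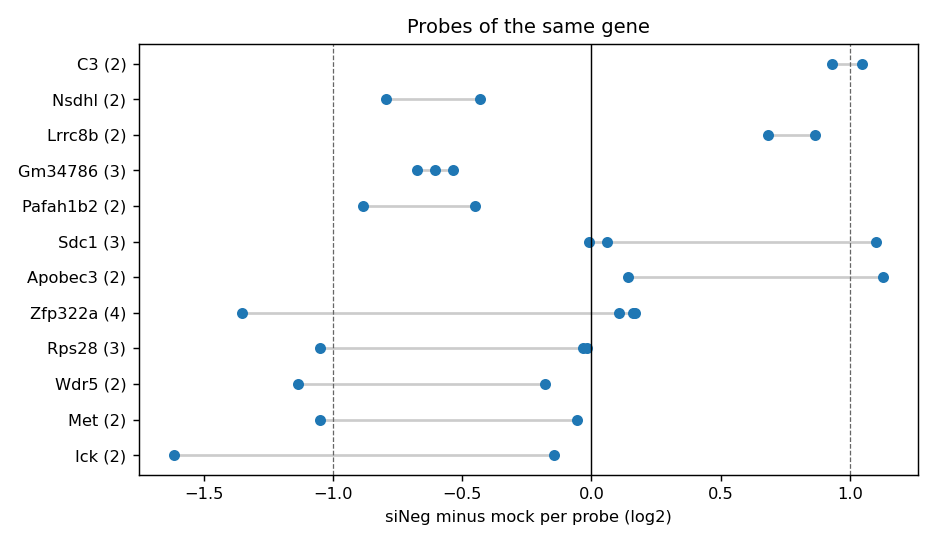
Difference siNeg minus mock (log2) of each measured probe of 12 genes, with the number of probes in parentheses and dashed lines at 2-fold. The probes of C3 lie at 0.93 and 1.05, while 1 probe each of Sdc1, Zfp322a, Rps28, Wdr5, Met and Ick (Cilk1) lies apart from the rest.

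Some genes were well above background on 1 of the arrays only, and their differences are bounds. In siNeg only there were 1140 such genes, 97 with a bound of at least 2-fold, and in mock only 968, 28 of them so. Each bound sets the bright signal against the lowest signal well above background on the dim array, or the dim probe's own signal if higher. The brightest in siNeg only were the stomach protein Gkn1 (at least 8.33-fold higher), the secretoglobin Scgb1b2 (at least 6.87-fold) and the late cornified envelope gene Lce1h (at least 3.36-fold). Among the brightest in mock only were the cytokine Il4 (at least 9.16-fold lower in siNeg) and the neuropeptide receptor Npbwr1 (at least 8.96-fold). The signals on the bright array were 14.4 to 43.5, each on 1 probe. Of these 5 genes Lce1h alone was above background in siKrt15. Olfactory receptor genes are known for expression in sensory neurons. Among those measured on both arrays, 5 of 321 were at least 2-fold higher in siNeg (1.56%) and 0 lower, with a median mock signal of 10.9. The share was 0.746% over all dimmer genes, but these reach higher signals. In the dimmest signal groups, with median mock signals of 6.91 and 10.98, 38 of 2439 and 40 of 2439 genes were 2-fold higher. In the same groups 4 and 13 were 2-fold lower. The higher share of the olfactory receptors was thus like that of genes of similar signal.

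The position of the array titled siKrt15 was counted for the genes that stood apart. That comparison shares its arrays with the one described, so the positions are given as counts only. Of the 94 genes at least 2-fold higher in siNeg, siKrt15 lay beyond siNeg in 4, between siNeg and mock in 49 and at or past mock in 41. In siKrt15 13 of the 94 were not well above background. With the signal trend removed siKrt15 lay beyond in 14 of the 94, and with quantile normalization in 7. Of the 23 lower genes it lay beyond in 6, between in 16 and at or past mock in 1, but under normexp beyond in 21. In siKrt15 2 of the 23 were not well above background. Of the 14 brighter genes at least 1.5-fold higher, it lay beyond in 8, between in 5 and past mock in 1. Of the 26 brighter genes at least 1.5-fold lower, it lay beyond in 19 and between in 7. The same positions were not counted over all genes or over all brighter genes, so these counts have no share to be set against. The genes were also picked by the siNeg value from which their position is read. The reference genes had a median of −0.32 for siKrt15 less siNeg, and Car15, counted as beyond, was at −0.04. C3, Orm1, Orm2, Igfbp7, Sprr2d, Otog, Nsdhl and Krt15 were among those beyond, and Perp, Wdr5, Fxyd2 and the ENSMUST00000161226 transcript were not.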

How the data were processed

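Gene expression was measured in total RNA of 3 samples of CLDE cells labelled with Cy3 (1-colour arrays). Agilent Feature Extraction 11.5.1.1 is named in the submitters' processing notes. Its output was deposited by the authors: a processed signal per spot, which is an intensity after background subtraction, with probe positions on mm9 per the file headers. The authors also deposited a table of log2 values whose scale and centring are unstated. Compared with the scanner output, it equals the log2 signal less a constant close to the 75th percentile for 93.8% (mock) and 94.0% (siNeg) of probes within 0.01, with column medians of −3.52 and −3.51 and no centring of genes.

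Control and outlier spots were left out, spots of a probe were averaged on the log2 scale, each array's 75th percentile was subtracted, probes well above background on both arrays were kept, and probes of a gene name were averaged (Python 3.11.15, pandas 2.3.3). Steps were tested on simulated data. The low number of arrays, 1 per group, limits precision and allows no test.

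The members and the 24 gene lists were chosen with earlier results of these data known. Named by rule were the 12 highest and 12 lowest genes with a symbol, a signal at or above the 25th percentile and probes going the same way, the 8 highest and 8 lowest brighter ones, the 3 brightest on 1 array only, the Orm and Sprr2 families, C3, Krt15, and up to 4 members of each list. Further list members were named for their role and genes with discordant probes as examples, after their values were seen. A few genes that the rule or the lists hold are not reported here. Symbols are those of the array, with current RefSeq names in parentheses, and promoters are from RefSeq (GRCm38.p6). The 12 other settings were normexp (limma 3.58.1, offset 50), quantile normalization, spike-in scaling, centring on the median, removal of the signal trend, the deposited table, the 75th percentile over spots, no filter on dim probes, a stricter filter, the brightest probe per gene, outlier spots kept, and a 1.5-fold threshold.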

Additional observations from a re-analysis of the deposited data

How the results depend on the processing

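The counts of genes at least 2-fold apart depend on how dim genes are treated and on the scaling. Against 94 higher and 23 lower genes, normexp background correction gave 0 and 2, spike-in scaling 39 and 55, no filter on dim probes 1433 and 822, the stricter filter 6 and 3, and the 1.5-fold threshold 661 and 396. In the other 7 settings the counts were 70 to 102 higher and 23 to 30 lower. Of the 94 higher genes, 39 were still 2-fold higher with spike-in scaling. The cause was not tested beyond the construction of each setting. Of the 94, siKrt15 lay further from mock than siNeg in 7 with quantile normalization and 14 with the signal trend removed, against 4. Of the 23 lower genes it did so in 21 with normexp, against 6. These counts were added after the data were seen. Of 139 genes tracked, 19 changed sign in at least 1 other setting, 0 of them among the tracked genes 2-fold apart. Most of the 117 genes 2-fold apart were not tracked. Of 24 list medians, 19 changed sign in at least 1 setting, with the median of all genes moved by −0.15 under spike-in scaling. No paired analysis was possible because each group has 1 array, and for the same reason no replicate could be left out. Dim genes limit the comparison: below the median signal the SD over genes was 0.33.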
